A study of Daucus carota with 18 samples.

Results

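The 5 carrot (Daucus carota) genes described here act in carbon and nucleotide metabolism. They are a sucrose invertase (DCAR_009482), a plastidial pyruvate kinase (DCAR_010645), an aldehyde dehydrogenase of family 2 member C4 (DCAR_010446), a ribose-phosphate pyrophosphokinase (DCAR_010690) and the NADH pyrophosphatase NUDT19 (DCAR_009201). They were picked by the names that the study and its annotation give them, and matched by ID, as 5 of the 32113 genes in the files. Transcripts were counted in 18 libraries, 1 from the outer phloem or cortex, which was purple (POP), and 1 from the inner phloem, which was not (NPIP), of each of 9 roots, with 3 roots in each of 3 sets. All plants were grown in the field and descend from 1 mapping population. The dark purple set dP1 and the pale purple set pP came from 1 family grown in California. The dark purple set dP2 came from a sibling family grown in Wisconsin, and its xylem was purple while that of dP1 and pP was not. Set, family, site and xylem colour therefore cannot be told apart wherever dP2 is compared with another set. Outer and inner phloem also differ in anatomy, so colour and tissue cannot be told apart either, and in such bulk tissue fewer cells of a type and less RNA per cell cannot be told apart.

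Sucrose reaches the root through the phloem, where invertases cleave it into glucose and fructose, the hexoses that feed glycolysis. Pyruvate kinase catalyses the last step of glycolysis, and its plastidial form supplies pyruvate inside the plastid. Aldehyde dehydrogenase family 2 member C4 is known from Arabidopsis, where it oxidises coniferaldehyde and sinapaldehyde to ferulic and sinapic acid, acids that also acylate carrot anthocyanins. Ribose-phosphate pyrophosphokinase makes phosphoribosyl pyrophosphate, the sugar phosphate from which purine, pyrimidine and pyridine nucleotides, histidine and tryptophan are built. NUDT19 belongs to the Nudix hydrolases, which cleave the pyrophosphate bond of dinucleotides such as NADH.

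Totals ranged from 6918267 to 9133313 counts per library. Levels are given as counts per 1000000 (CPM) after TMM normalisation over the 18 libraries, a scaling that corrects for library size and composition. All 5 genes had reads in all 18 libraries and reached 1 CPM in 3 or more libraries of each fit, the minimum for a test. Of the tissue markers, the 3 APL homologs (phloem identity) summed to 11.3 to 86.4 CPM in the 9 NPIP and 0.534 to 12.4 CPM in the 9 POP libraries, and within each set their ranges did not overlap. The homolog DCAR_019908 had no read in 2 POP libraries of pP and in 1 of dP1. The summed level of KNAT7 and the IRX15-LIKE gene, which act in secondary walls, was 8.71 to 43.7 CPM in POP and 0.464 to 6.84 CPM in NPIP. Replicate 3 of the NPIP stood apart in dP2 and in pP by a sum of pathway genes. In both sets this library was also the highest NPIP library for the aldehyde dehydrogenase, NUDT19 and the invertase. For the pyruvate kinase it was the highest in dP2 and the lowest in pP, and for the pyrophosphokinase it was the highest in neither. In replicate 3 of dP2, 14 phenylpropanoid and anthocyanin genes summed to 1450 CPM, against 125 and 244 CPM in the other two, and in replicate 3 of pP they summed to 84.3 CPM, against 37.6 and 38.8 CPM. The replicate number marks the root, and in dP1 and dP2 both libraries of a root deviated from their group means in the same direction. In the pale purple set, the deviations of POP replicate 1 followed those of NPIP replicate 3 (r = 0.62 across genes) rather than NPIP replicate 1 (r = −0.25), so ratios within pP roots 1 and 3 rest on numbers that the data do not bear out.

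**Figure D1:**
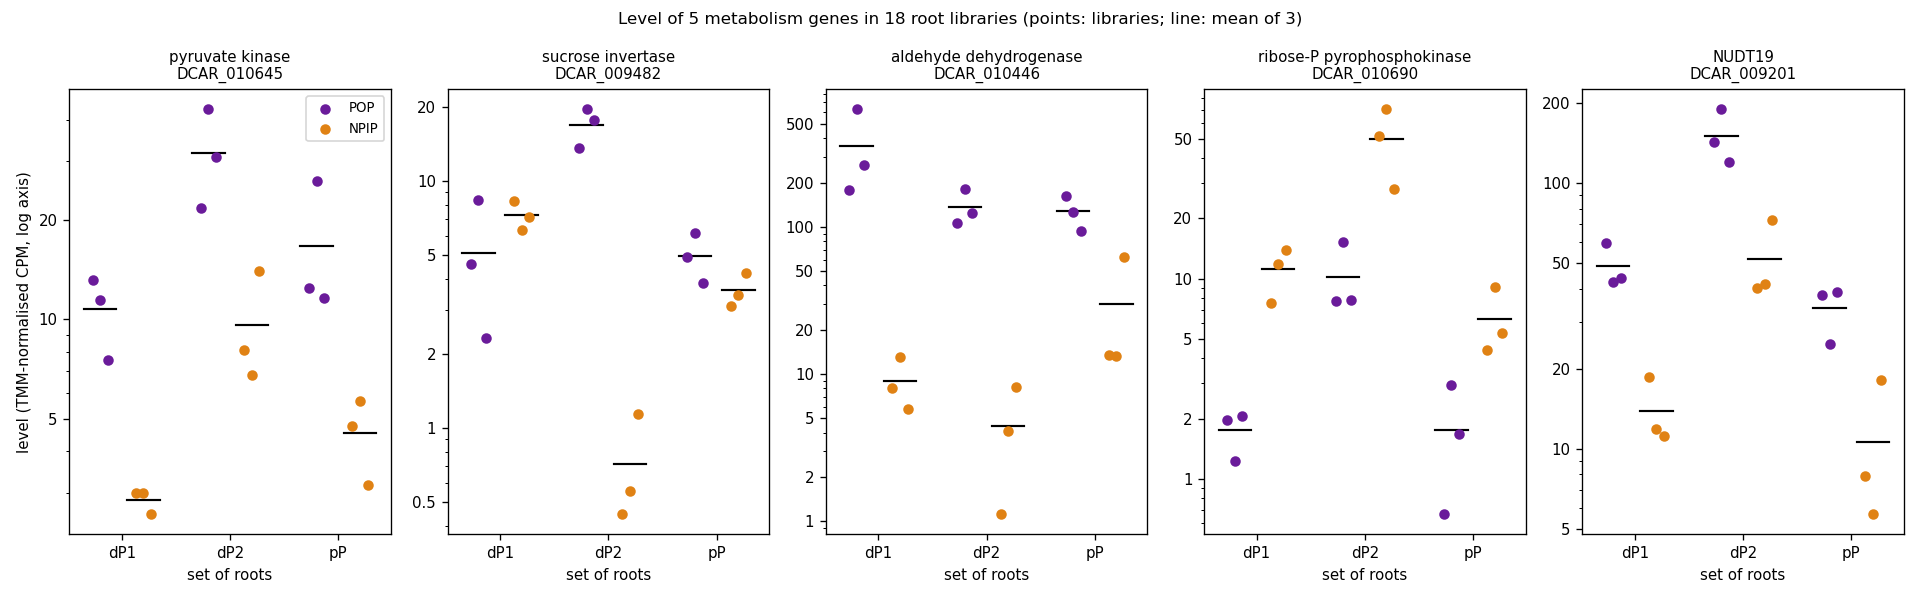
Level of each gene in every library, in TMM-normalised CPM on a log axis whose range differs between panels, by set, with POP in purple and NPIP in orange. Points are libraries and lines are means of 3. The invertase separates the tissues in dP2, at 13.6 to 19.5 CPM in POP and 0.448 to 1.14 CPM in NPIP, and overlaps between tissues in dP1 and pP.

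The sucrose invertase DCAR_009482 passed the test of POP against NPIP in dP2, where it was higher in POP, and not in dP1 or pP. In dP2 it was at 13.6, 19.5 and 17.7 CPM in POP and at 0.448, 0.555 and 1.14 CPM in NPIP. The NPIP levels rest on 4, 5 and 10 reads, and the lowest POP library is still above the highest NPIP library by a wide margin. Over the 3 roots, 413 reads in POP stood against 19 in NPIP, a ratio of 23.8 after scaling by library size (exact 95% interval 15.0 to 39.9, which covers counting error only). The log2 fold change of POP over NPIP (log2FC), fitted on the 6 libraries of dP2 by edgeR's quasi-likelihood test, was 4.54 with a standard error (SE) of 0.41, and its Benjamini-Hochberg false discovery rate over all genes tested (FDR) was 0.0046. It passed the threshold of 0.05 without any 1 of the 6 libraries, with FDR between 0.0026 and 0.028.

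In dP1 the invertase was at 4.60, 8.36 and 2.32 CPM in POP and at 8.32, 6.34 and 7.17 CPM in NPIP, so the tissues overlapped. The 3 NPIP libraries were close together and the POP libraries were spread 3.61-fold. The log2FC was −0.49 (SE 0.46, edgeR FDR 0.49). In pP its levels were 4.94, 6.16 and 3.86 CPM in POP and 3.13, 3.47 and 4.26 CPM in NPIP, which overlapped too, with a log2FC of 0.47 (SE 0.31, edgeR FDR 0.45). The difference between these tissue effects was tested in 1 fit of all 18 libraries. The POP over NPIP difference of dP2 exceeded that of dP1 by a log2 value of 5.05 (SE 0.60, edgeR FDR 0.0016) and that of pP by 4.08 (SE 0.60, edgeR FDR 0.0079). Both calls held without any 1 of the 18 libraries, with FDR of at most 0.0093 and 0.034. With root as a block both held at a higher edgeR FDR, 0.011 against dP1 and 0.022 against pP. Between dP1 and pP the tissue effect differed by −0.97 (SE 0.56, unadjusted p = 0.10, edgeR FDR 1.0).

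Both tissues contributed to the pattern of the invertase in dP2. Its POP level was above that of dP1 by a log2FC of 1.73 (SE 0.40, edgeR FDR 0.0043) and above that of pP by 1.76 (SE 0.40, edgeR FDR 0.0041). Its NPIP level was below that of dP1 by a log2FC of −3.32 (SE 0.45, edgeR FDR 7.2e-05) and below that of pP by −2.32 (SE 0.45, edgeR FDR 0.0013). All 4 calls held without any 1 of the 18 libraries. The order of the group means was dP2 POP (16.9 ± 3.0 CPM, mean ± SD, n = 3), dP1 NPIP (7.28 ± 0.99), dP1 POP (5.09 ± 3.05), pP POP (4.99 ± 1.15), pP NPIP (3.62 ± 0.58) and dP2 NPIP (0.714 ± 0.370). The 4 groups in the middle overlapped with their neighbours in this order, and both dP2 groups lay outside them. The position of the invertase was not given with those of the other 4 genes. The study places it close to the edge of P1, the region described with NUDT19 below. Its identity in the study's RT-qPCR, for which no value is given here, is fixed by the following primer pair. The pair is shown because the POP over NPIP difference of this gene differed between sets. Both are printed 5′ to 3′.
Invertase forward primer: tgagcaagcctcagcaataa
Invertase reverse primer: gtatcgcagcctgtaactatcc

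The plastidial pyruvate kinase DCAR_010645 was higher in POP than in NPIP in all 3 sets, with fitted ratios of 3.81 in dP1, 3.31 in dP2 and 3.71 in pP. It lies on chromosome 3 from 26620833 to 26625680 of the carrot assembly v2.0, inside P3, a region linked to purple root pigmentation. In dP1 its level was 13.2, 11.5 and 7.56 CPM in POP and 2.99, 2.99 and 2.58 CPM in NPIP. In dP2 it was 21.7, 43.1 and 30.9 CPM in POP and 8.07, 6.77 and 14.0 CPM in NPIP. In pP it was 12.4, 26.1 and 11.6 CPM in POP and 4.76, 5.67 and 3.16 CPM in NPIP. No POP library of a set fell within the range of its NPIP libraries, and the highest NPIP library was replicate 3 of dP2. The log2FC was 1.93 (SE 0.32, edgeR FDR 0.0076) in dP1, 1.73 (SE 0.38, edgeR FDR 0.034) in dP2 and 1.89 (SE 0.41, edgeR FDR 0.047) in pP. The dP1 call held without any 1 library. The dP2 call was lost without replicate 2 or 3 of POP or without replicate 1 or 2 of NPIP (edgeR FDR 0.095 to 0.12), and the pP call was lost without any 1 of the 6 libraries (edgeR FDR 0.072 to 0.15). The tissue effect differed between sets by log2 values of 0.03 (dP1 against pP, SE 0.51), −0.15 (dP2 against pP, SE 0.52) and −0.17 (dP2 against dP1, SE 0.53), and none of the 3 passed the test.

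The pyruvate kinase was also higher in dP2 than in dP1 in both tissues. The log2FC between these sets was 1.57 (SE 0.38, edgeR FDR 0.0057) in POP and 1.75 (SE 0.40, edgeR FDR 0.0031) in NPIP. Against pP it was 0.93 (SE 0.37, edgeR FDR 0.068) in POP, which did not pass, and 1.08 (SE 0.38, edgeR FDR 0.040) in NPIP. These last values lie near the threshold. The POP difference passed without pP POP replicate 2, dP2 POP replicate 1 or dP2 NPIP replicate 3 (edgeR FDR 0.015 to 0.048). The NPIP call was lost without dP1 NPIP replicate 1, pP NPIP replicate 1, pP NPIP replicate 3 or dP2 NPIP replicate 3 (edgeR FDR 0.051 to 0.19). By mean level the groups ran from dP2 POP (31.9 ± 10.7 CPM) over pP POP (16.7 ± 8.17), dP1 POP (10.7 ± 2.87), dP2 NPIP (9.61 ± 3.84) and pP NPIP (4.53 ± 1.27) to dP1 NPIP (2.86 ± 0.23; each SD of n = 3). The ranges of neighbours overlapped down to dP2 NPIP and not below it.

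The aldehyde dehydrogenase DCAR_010446 had the highest estimate of POP over NPIP of the 5 genes in each set. It was within the SE of the invertase in dP2 and of the pyruvate kinase and NUDT19 in pP. It lies on chromosome 3 from 23195242 to 23199804, outside P3 but within the wider region that the study links to pigment of the inner phloem. In dP1 it was at 178, 628 and 265 CPM in POP and at 8.06, 13.2 and 5.76 CPM in NPIP. In dP2 its levels were 105.5, 181 and 123 CPM in POP and 1.12, 4.11 and 8.18 CPM in NPIP. These groups did not overlap, and each POP library of dP1 and dP2 exceeded 100 CPM. The log2FC was 5.33 (SE 0.58, edgeR FDR 0.0022) in dP1 and 4.92 (SE 0.68, edgeR FDR 0.0099) in dP2, and both calls held without any 1 library. On the linear scale these are ratios of 40.1 and 30.3. The first was 25.1 without POP replicate 2 of dP1, and the second was 51.9 without NPIP replicate 3 of dP2.

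In pP the aldehyde dehydrogenase was at 162, 127 and 93.7 CPM in POP and at 13.5, 13.3 and 62.8 CPM in NPIP. Replicate 3 of the NPIP stood 4.7 times above the other two, while POP remained above NPIP in each library. With all 6 libraries the log2FC was 2.10 (SE 0.66) and did not pass (edgeR FDR 0.12). Without NPIP replicate 3 it was 3.26 and passed (edgeR FDR 0.020). It also passed by DESeq2 (FDR 0.0073) and by edgeR's likelihood ratio test (FDR 0.018). It did not pass in 1 fit of all 18 libraries (edgeR FDR 0.062). With RLE size factors (edgeR FDR 0.12) or without the low-count filter (edgeR FDR 0.11) it did not pass. Without any 1 library other than NPIP replicate 3 it did not pass either (edgeR FDR up to 0.28). With root as a block in the pairing of the labels the log2FC was 2.53 (edgeR FDR 0.13). With NPIP numbers 1 and 3 exchanged in the block it was 2.46 (edgeR FDR 0.0084). That exchange was chosen from these same libraries, so its FDR is not independent evidence. The same NPIP library had the highest sum of the phenylpropanoid and anthocyanin genes among the pP NPIP libraries (84.3 CPM), and the part of that in the value was not tested.

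Between sets, the aldehyde dehydrogenase differed in NPIP of dP2 against pP, with a log2FC of −2.73 (SE 0.72, edgeR FDR 0.0089), a call that was lost without pP NPIP replicate 3 (log2FC −1.58, edgeR FDR 0.073). Without NPIP replicate 3 of dP2 the log2FC was −3.54 (edgeR FDR 0.0069). Its POP levels gave log2FC of 0.10 (SE 0.64) for dP2 against pP, 1.48 (SE 0.66, unadjusted p = 0.039, edgeR FDR 0.31) for dP1 against pP and −1.39 (SE 0.66, edgeR FDR 0.12) for dP2 against dP1. None of these POP differences passed, and POP replicate 2 of dP1 alone was at 628 CPM, in the library with the highest sum of the phenylpropanoid and anthocyanin genes (7930 CPM). The tissue effect of dP1 exceeded that of pP by a log2 value of 3.21 (SE 0.95, unadjusted p = 0.0041, edgeR FDR 0.84) and that of dP2 exceeded it by 2.83 (SE 0.96, unadjusted p = 0.0097, edgeR FDR 0.18). Neither passed over all genes, and without pP NPIP replicate 3 the values were 2.06 and 1.68. The 3 POP groups (357 ± 238 CPM in dP1, 136 ± 39.3 in dP2, 128 ± 34.3 in pP) all lay above pP NPIP (29.9 ± 28.5), dP1 NPIP (8.99 ± 3.79) and dP2 NPIP (4.47 ± 3.55; SD, n = 3). Among them, dP2 overlapped both dP1 and pP, while every POP library of dP1 was above every one of pP.

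The ribose-phosphate pyrophosphokinase DCAR_010690 was the 1 gene of the 5 with lower levels in POP than in NPIP in all 3 sets. It lies on chromosome 3 from 27167233 to 27168756, within P3. In dP1 its level was 1.97, 1.23 and 2.07 CPM in POP against 7.54, 11.9 and 14.0 CPM in NPIP. In dP2 it was 7.73, 15.2 and 7.81 CPM in POP and 51.3, 70.1 and 28.2 CPM in NPIP. In pP the values were 0.668, 2.95 and 1.67 CPM in POP and 4.41, 9.14 and 5.35 CPM in NPIP. POP and NPIP did not overlap in any set, and the lowest levels rest on 5 to 22 reads per library in the POP of dP1 and pP. The log2FC was −2.63 (SE 0.38, edgeR FDR 0.0049) in dP1, −2.28 (SE 0.42, edgeR FDR 0.021) in dP2 and −1.82 (SE 0.57, edgeR FDR 0.12) in pP. The pP difference passed by DESeq2 (FDR 0.034) and by the likelihood ratio test (FDR 0.029). It also passed in 1 fit of all 18 libraries (edgeR FDR 0.030). It passed with the exchanged block (edgeR FDR 0.024), whose pairing was chosen from these libraries, but not with root as a block (edgeR FDR 0.071). With RLE size factors or without the low-count filter it did not pass (edgeR FDR 0.12 in each). Without any 1 of the 6 libraries it did not pass either (edgeR FDR 0.083 to 0.30). The dP1 call held without any 1 library. The dP2 call was lost without any 1 library other than NPIP replicate 3 (edgeR FDR 0.0502 to 0.082).

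This gene set dP2 apart in both tissues. Its log2FC of dP2 over pP was 2.53 (SE 0.50, edgeR FDR 0.0019) in POP and 2.98 (SE 0.48, edgeR FDR 0.00033) in NPIP. Over dP1 it was 2.54 (SE 0.50, edgeR FDR 0.0018) in POP and 2.16 (SE 0.46, edgeR FDR 0.0020) in NPIP. All 4 calls held without any 1 of the 18 libraries. The 3 APL homologs were also highest in dP2, with summed levels of 58.4 to 86.4 CPM in NPIP, against 19.9 to 28.3 CPM in dP1 and 11.3 to 14.6 CPM in pP, and of 5.77 to 12.4 CPM in POP, against 1.18 to 4.01 CPM and 0.534 to 3.35 CPM. Their part in the level of the pyrophosphokinase was not tested. The dP2 NPIP mean was 49.9 ± 21.0 CPM, followed by dP1 NPIP (11.1 ± 3.28), dP2 POP (10.2 ± 4.27), pP NPIP (6.30 ± 2.50), pP POP (1.76 ± 1.14) and dP1 POP (1.76 ± 0.46; SD, n = 3). The POP of dP2 thus overlapped the NPIP of dP1 and of pP.

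NUDT19 DCAR_009201 was higher in POP in each set, at a level well above that of the pyruvate kinase. It lies on chromosome 3 from 5345986 to 5350047, in P1, another region linked to purple pigmentation. In dP1 it was at 59.4, 42.2 and 43.9 CPM in POP and at 18.6, 11.9 and 11.2 CPM in NPIP. In dP2 its levels were 143, 189 and 120 CPM in POP and 40.2, 41.8 and 72.8 CPM in NPIP. In pP they were 37.9, 24.7 and 38.8 CPM in POP and 7.89, 5.67 and 18.1 CPM in NPIP. Tissues did not overlap in any set, and replicate 3 was the highest NPIP library in dP2 and in pP, as it was for the aldehyde dehydrogenase. The log2FC was 1.83 (SE 0.28, edgeR FDR 0.0055) in dP1, 1.54 (SE 0.30, edgeR FDR 0.025) in dP2 and 1.69 (SE 0.46, edgeR FDR 0.085) in pP. In pP the test was passed without NPIP replicate 3 (log2FC 2.33, edgeR FDR 0.033) and with root as a block (edgeR FDR 0.046). NUDT19 passed by DESeq2 (FDR 0.0062), by the likelihood ratio test (FDR 0.011) and in 1 fit of all 18 libraries (edgeR FDR 0.013). It passed with the exchanged block (edgeR FDR 0.0090), whose pairing was chosen from these libraries. It did not pass with RLE size factors (edgeR FDR 0.083) or without the low-count filter (edgeR FDR 0.080). Without any 1 library other than NPIP replicate 3 it did not pass either (edgeR FDR up to 0.24). The dP1 call held without any 1 library, and the dP2 call was lost without any 1 library other than NPIP replicate 3 (edgeR FDR 0.052 to 0.093).

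Both tissues of dP2 had more NUDT19 than those of the other sets. The log2FC of dP2 over pP was 2.15 (SE 0.39, edgeR FDR 0.00098) in POP and 2.29 (SE 0.39, edgeR FDR 0.00053) in NPIP, and that over dP1 was 1.63 (SE 0.38, edgeR FDR 0.0046) and 1.90 (SE 0.39, edgeR FDR 0.0015). The 4 calls held without any 1 of the 18 libraries, and the NPIP value against pP was 2.93 without pP NPIP replicate 3. Levels fell in order from dP2 POP (150.4 ± 35.3 CPM) over dP2 NPIP (51.6 ± 18.3), dP1 POP (48.5 ± 9.49), pP POP (33.8 ± 7.93) and dP1 NPIP (13.9 ± 4.10) to pP NPIP (10.6 ± 6.64; SD, n = 3). The inner phloem of dP2 overlapped the purple outer phloem of dP1, and dP1 NPIP overlapped pP NPIP. Tissue effects differed between sets by log2 values of 0.13 (dP1 against pP, SE 0.54), −0.14 (dP2 against pP, SE 0.52) and −0.26 (dP2 against dP1, SE 0.53), none of which passed.

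**Figure D2:**
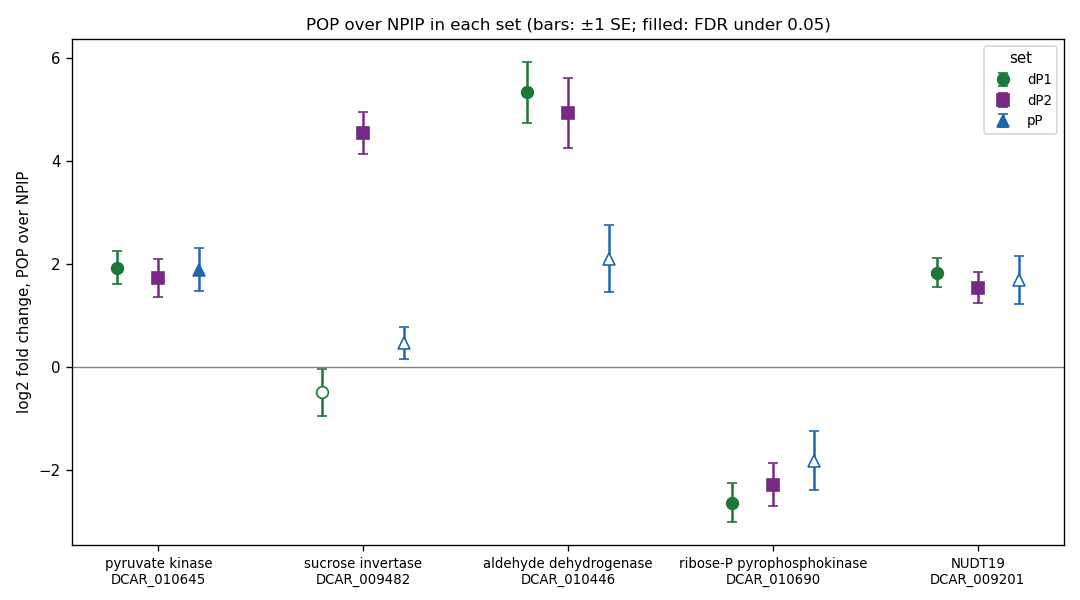
Log2 fold change of POP over NPIP for each gene and set, with bars of ±1 SE and filled symbols where the edgeR FDR is under 0.05. The invertase is at 4.54 in dP2, −0.49 in dP1 and 0.47 in pP, while the pyruvate kinase lies between 1.73 and 1.93 in all 3 sets.

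Counted together, 4 of the 5 genes passed the test of POP against NPIP in dP1, where 18.9% of 17452 genes tested passed. Of these, 3 had higher levels in POP (11.5% of all genes) and 1 had a lower level (7.41%). In dP2 all 5 passed, against 11.9% of 18725 genes, namely 4 with more transcript in POP (8.22%) and 1 with less (3.66%). In pP 1 passed, the pyruvate kinase, against 6.23% of 17616 genes. It was among the 4.89% called with more transcript in POP, and none was among the 1.35% with less. Of the 5, all but the invertase are in the study's own list of genes called in its 3 tissue comparisons on these libraries. For the invertase the study reports, from these libraries too, more transcript in POP in dP2 only. The tissue calls of the 5 genes are therefore not independent evidence of their direction. The counts in dP2 and pP also rest on few libraries. Leaving out 1 library gave 2 to 5 calls in dP2 and 0 to 2 in pP. The calls over all genes moved too, to 522 to 3062 in dP2 and 219 to 998 in pP. In pP, DESeq2 and the likelihood ratio test each called 4, where 2347 and 2121 of 17616 genes passed. Root as a block called 2 (837 of all genes) and the exchanged block 4 (3137 of all genes).

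Within single roots the direction was uniform for all but the invertase. The pyruvate kinase, the aldehyde dehydrogenase and NUDT19 were higher in POP in 9 of 9 roots, and the pyrophosphokinase was lower in 9 of 9. The invertase was higher in POP in 6 roots and lower in 3, which were roots 1 and 3 of dP1 and, by the root numbers of the labels, root 3 of pP. With the NPIP libraries of roots 1 and 3 of pP exchanged, it was higher in POP in 7 roots and in all 3 of pP (ratios 1.16, 1.78 and 1.23), and the other 4 genes kept their direction in 9 of 9. By the numbers of the labels, the invertase ratio of POP to NPIP was 30.4, 35.1 and 15.5 in the roots of dP2, against 0.554, 1.32 and 0.323 in dP1 and 1.58, 1.78 and 0.907 in pP. No root of dP1 or pP came near the smallest ratio in dP2. For the aldehyde dehydrogenase the ratio ran from 94.1 in root 1 of dP2 to 1.49 in root 3 of pP, by the root numbers of the labels. In root 3 of dP2 the NPIP library had the highest sum of the phenylpropanoid and anthocyanin genes. In the NPIP of dP2 the phenylalanine ammonia-lyase and 4-coumaric acid ligase genes of that list had 435 to 7627 reads each. Its other genes, which include those of anthocyanin synthesis, had 7 to 875. In root 3 the ratios of 4 genes were the least of the set (pyruvate kinase 2.21, invertase 15.5, aldehyde dehydrogenase 15.1, NUDT19 1.64). The pyrophosphokinase had its smallest excess in NPIP there (3.61-fold).

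**Figure D3:**
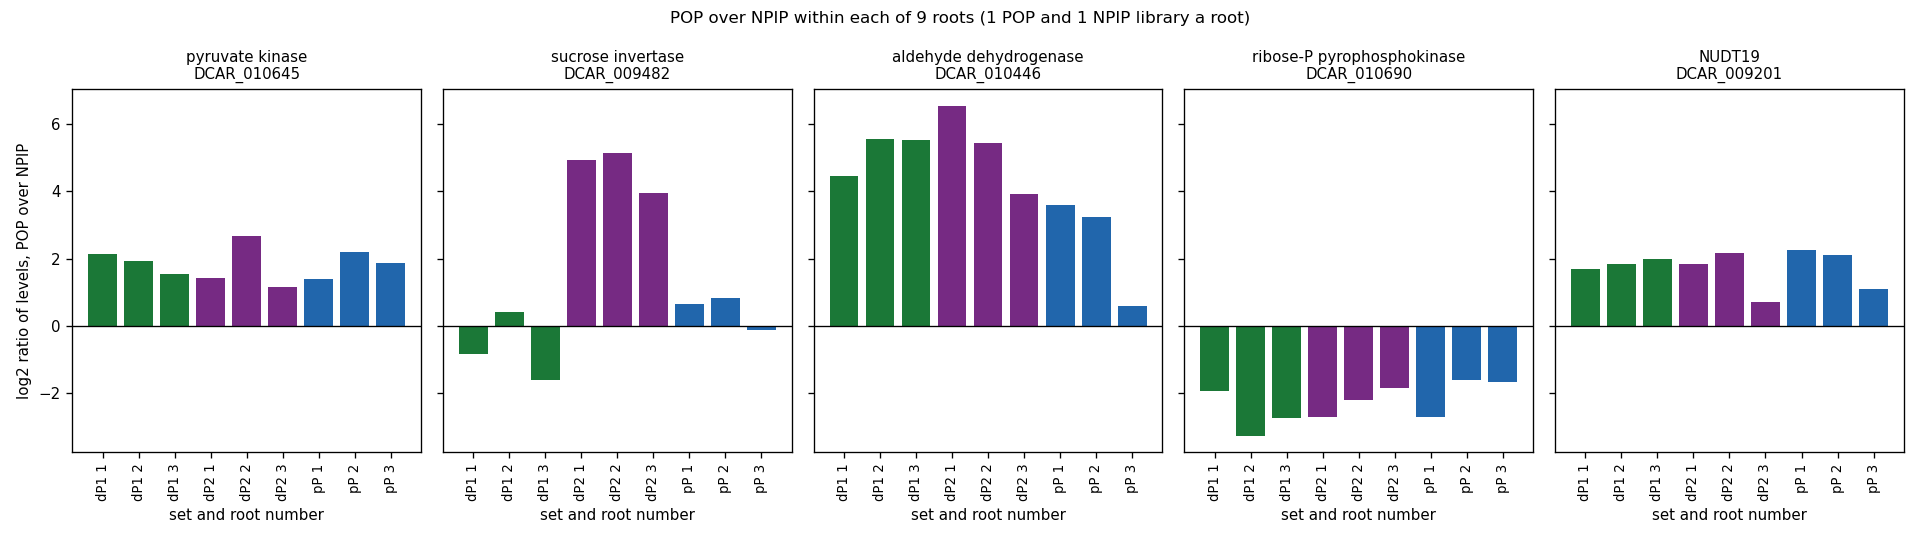
Log2 ratio of the POP to the NPIP level within each of the 9 roots, by gene, coloured by set (dP1 green, dP2 purple, pP blue), with 1 library per tissue and root and the root numbers of the labels. The invertase bars of dP2 stand at 4.93, 5.13 and 3.96, and those of the other sets lie between −1.63 and 0.83.

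Across sets within 1 tissue, none of the 5 genes passed the test between dP1 and pP. In POP 0 of 5 passed, where 1.33% of 20253 genes did, and in NPIP 0 of 5, where 4.57% did. DESeq2 and the likelihood ratio test also called 0 in each. At an unadjusted p under 0.05 there was the aldehyde dehydrogenase in POP (log2FC 1.48), and in NPIP the invertase (log2FC 1.0, SE 0.40, edgeR FDR 0.16) and the aldehyde dehydrogenase (log2FC −1.73, SE 0.68, edgeR FDR 0.17). The comparisons with dP2 called more of the 5, as they did of all genes. Against pP, 3 passed in POP (31.1% of all genes) and 5 in NPIP (35.2%). Against dP1, 4 passed in POP (33.5%) and 4 in NPIP (41.3%). The dP2 libraries are shared between these comparisons, so they are not separate evidence. Of the tissue by set differences, 0 of 5 passed for dP1 against pP (0.0148% of all genes), 1 for dP2 against pP (1.11%) and 1 for dP2 against dP1 (2.42%), the invertase both times. For dP1 against pP, DESeq2 and the likelihood ratio test also called 0 of the 5, and at an unadjusted p under 0.05 there was 1, the aldehyde dehydrogenase.

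**Figure D4:**
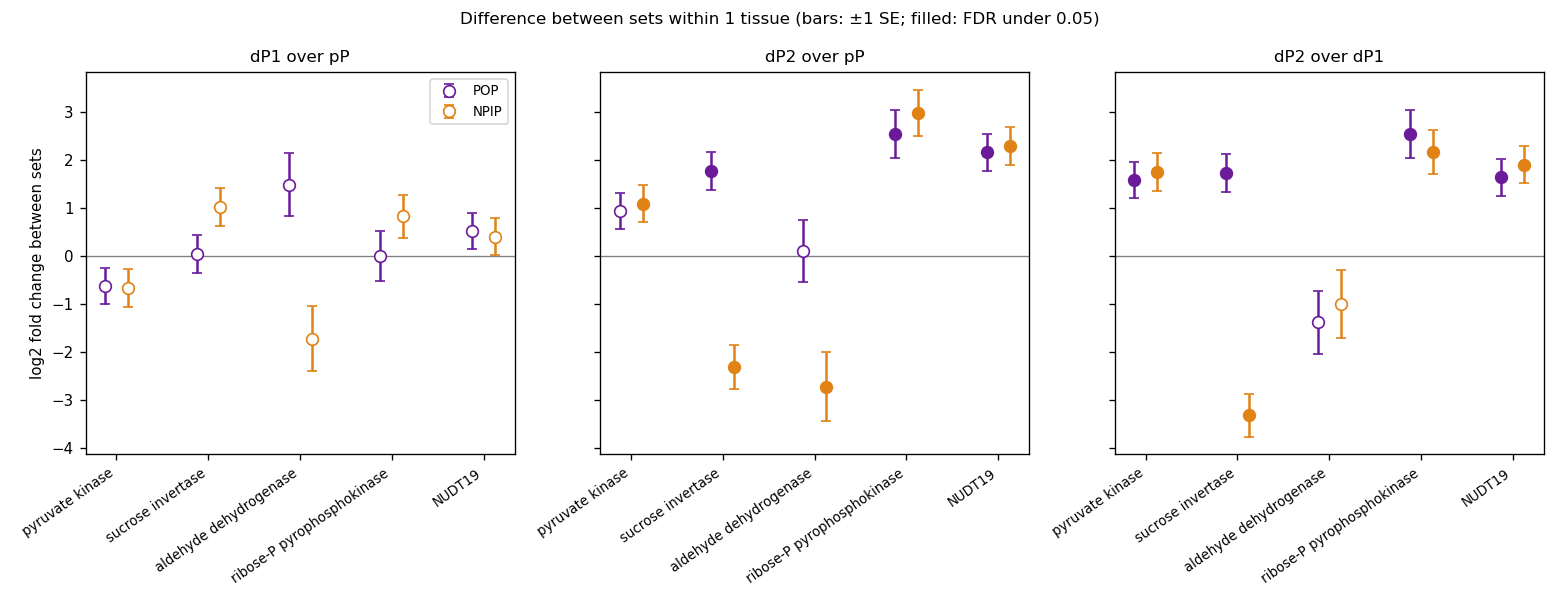
Log2 fold change between sets within POP (purple) and within NPIP (orange), with bars of ±1 SE and filled symbols where the edgeR FDR is under 0.05. In the comparisons with dP2 the invertase points in opposite directions in the 2 tissues (1.76 and −2.32 against pP, 1.73 and −3.32 against dP1), while the pyrophosphokinase and NUDT19 are higher in dP2 in both.

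Per length, as transcripts per 1000000 (TPM) estimated by the authors, the aldehyde dehydrogenase was the most abundant of the 5 in the POP of dP1 (215 ± 151 TPM) and of pP (81.1 ± 16.3 TPM; SD, n = 3). It exceeded the mean TPM of 97.7% of the 32113 genes in the POP of dP1. In dP2 POP NUDT19 was higher, at 118 ± 27.9 TPM, against 81.6 ± 23.6 TPM. In NPIP the order depended on the set. The pyrophosphokinase (47.6 ± 19.9 TPM) and NUDT19 (43.1 ± 14.2 TPM) led in dP2, within each other's spread. In dP1 NPIP the same 2 genes led, with NUDT19 at 12.3 ± 3.4 and the pyrophosphokinase at 11.4 ± 4.2 TPM. In pP NPIP the aldehyde dehydrogenase kept the highest mean (18.9 ± 16.6 TPM), ahead of NUDT19 (8.91 ± 4.86 TPM) and within its spread. By mean TPM the invertase was the least abundant of the 5 in both tissues of dP2, at 5.98 ± 1.06 TPM in POP and 0.270 ± 0.131 TPM in NPIP. The ratio of the highest to the lowest group mean in CPM was 79.8 for the aldehyde dehydrogenase, 28.4 for the pyrophosphokinase, 23.7 for the invertase, 14.2 for NUDT19 and 11.2 for the pyruvate kinase.

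The 14 phenylpropanoid and anthocyanin genes, the pathway that makes the purple pigment, give the background of the tissue comparison. In dP1 13 of 14 were called higher in POP and 0 lower (median log2FC 5.71, against 0.005 over all genes tested). In dP2 10 were called higher and 0 lower (4.41, against −0.03), and in pP 9 and 0 (5.12, against 0.00). Over all genes tested, 11.5%, 8.22% and 4.89% were called higher in dP1, dP2 and pP. All 14 pathway genes had a positive log2FC in each set. The study named these genes from these libraries, so their direction is not independent evidence. The aldehyde dehydrogenase, with log2FC of 5.33, 4.92 and 2.10, was near these medians in dP1 and dP2 and lower in pP. Its pP value was 3.26 without NPIP replicate 3. Its tissue effect did not pass the test of dP1 or dP2 against pP (edgeR FDR 0.84 and 0.18). The 3 APL homologs were lower in POP, with 3 of 3 called in dP1 and dP2 and 1 of 3 in pP. KNAT7 and the IRX15-LIKE gene were called higher in dP1 and dP2, and 1 of the 2 in pP.

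The IDs within 2 of those of the 5 genes belong to 20 genes. Of these, 11 were tested in dP1, where 3 passed with more and 3 with less transcript in POP (11.5% and 7.41% of all genes tested). In dP2 12 were tested and 4 passed, and in pP 11 were tested and 1 passed, all with more in POP. Over all genes tested, 8.22% in dP2 and 4.89% in pP passed with more in POP. DCAR_009483 and DCAR_010688, given below, are among the genes that the study called from these same libraries. The ID next to the invertase is DCAR_009483, a flavanone 3-hydroxylase of anthocyanin synthesis. Its log2FC was 6.76 (SE 1.63, edgeR FDR 0.028) in dP1, 8.69 (SE 0.78, edgeR FDR 0.0046) in dP2 and 6.05 (SE 1.53, edgeR FDR 0.070) in pP. It was thus far higher in POP in dP1, where the invertase was at −0.49. The next ID, DCAR_009484, was higher in POP in dP1 (log2FC 1.01, SE 0.22, edgeR FDR 0.019) and dP2 (0.69, SE 0.15, edgeR FDR 0.032). Near the pyrophosphokinase, the cationic peroxidase DCAR_010688, also in P3, was higher in POP in all 3 sets (edgeR FDR 0.018 in dP1, 0.043 in dP2 and 0.013 in pP), opposite in direction to the pyrophosphokinase. It had 1087 reads in POP and 0 in NPIP of dP1, at least 359-fold higher against a floor of 3 reads over the group. In dP2 the log2FC was 4.99 (SE 1.18), and in pP 182 reads in POP stood against 1 in NPIP (ratio 196, exact 95% interval 34.7 to 7760, counting error only).

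Likeness of pattern was measured as Pearson's r of log2(CPM + 1) over the 18 libraries, which share groups and roots, among 20252 other genes, and is given as a description. The genes most like the aldehyde dehydrogenase were DCAR_015232 (r = 0.94), the MADS-box transcription factor gene DCAR_010757 of P3 (0.94) and DCAR_009630 (0.94). For the pyrophosphokinase they were DCAR_014844 (0.97), DCAR_011749 (0.97) and DCAR_023826 (0.96), and for NUDT19 DCAR_024517 (0.97), DCAR_004726 (0.96) and DCAR_017871 (0.96). The pyruvate kinase was nearest to DCAR_020235 (0.96), DCAR_015729 (0.96) and DCAR_019287 (0.95). The invertase had weaker partners, namely DCAR_012792 (0.90), DCAR_024107 (0.82) and DCAR_027985 (0.82). In dP2 the mean level of DCAR_012792 was 148 CPM in POP against 35.3 CPM in NPIP, and in dP1 it was 102 against 120 CPM. Among the 5 genes, r was highest between the pyruvate kinase and NUDT19 (0.81) and lowest between the aldehyde dehydrogenase and the pyrophosphokinase (−0.78). The invertase had r between −0.39 and 0.56 with the other 4.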

How the data were processed

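Single-end reads of 100 nt from 18 libraries were checked by the authors with FastQC, trimmed with Trimmomatic 0.32, and assigned with Bowtie2 and RSEM to the V1.0 annotation of the carrot assembly v2.0. The authors deposited expected counts, which are not normalised, and TPM per gene. RSEM divides reads between similar genes, but the counts of the 5 members were whole in all libraries. Strand was not stated. Groups come from sample titles.

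After rounding of the expected counts, genes had to reach 1 CPM in 3 or more libraries of a fit, and TMM factors were computed. The test was edgeR 4.0.16 (quasi-likelihood, R 4.3.3), called at a Benjamini-Hochberg FDR under 0.05. POP and NPIP were compared on the 6 libraries of a set, and sets on all 18. SE is the log2FC over the square root of F. The scripts were tested on simulated data. Alternatives were RLE size factors, DESeq2 1.42.0, the likelihood ratio test, no filter, root as a block, other library sets and each library left out (with a minimum of 2 libraries for the filter in fits of 1 set).

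The study took both tissues from each root, so the replicate number pairs libraries. Deviations from the group means correlated across genes, for roots 1 to 3, with r of 0.36, 0.47 and 0.37 for dP1. For dP2 r was 0.54, 0.30 and 0.39, and for pP −0.25, 0.62 and −0.09. The exchange of NPIP numbers 1 and 3 of pP was taken from these correlations. The FDR and counts of the exchanged block are therefore not independent evidence. Named besides the members are the 3 genes most alike, neighbours by ID called in at least 2 sets, and lists of markers and pathway genes. No reference table here matched DCAR IDs (0 rows), so names come from the study. Members and lists were chosen with earlier results of these data known.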

Additional observations from a re-analysis of the deposited data

Results flagged for a closer look

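The POP over NPIP difference of the sucrose invertase DCAR_009482 was larger in dP2 than in the other sets, by a test of the difference itself. Against pP the log2 value was 4.08 (edgeR FDR 0.0079, or 0.022 with root as a block). Against dP1 it was 5.05 (edgeR FDR 0.0016, or 0.011 with root as a block). By the root numbers of the labels the invertase was higher in POP in 3 of 3 roots of dP2, in 2 of 3 of pP and in 1 of 3 of dP1. In pP this count depends on those numbers, and it was 3 of 3 with the NPIP libraries of roots 1 and 3 exchanged. Site, family and xylem colour go with dP2 and cannot be told apart. The study reports the invertase as higher in POP in dP2 only, from the same libraries, so the pattern is not independent evidence.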

How the results depend on the processing

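Every alternative kept the direction of each called value. In POP against NPIP of pP, 1 of the 5 genes was called, against 4 by DESeq2 and 4 by the likelihood ratio test. There were 2 with root as a replicate block, 4 in a block that exchanges the NPIP of roots 1 and 3 and 3 in 1 fit of all 18 libraries. Over all genes these fits called 1098, 2347, 2121, 837, 3137 and 2040, in that order. In NPIP of dP2 against pP, 5 were called (7131 of 20253 genes), and 3 on the 6 libraries of these groups alone (5232 of 17807). In these 6 libraries the pyruvate kinase (FDR 0.081) and the aldehyde dehydrogenase (FDR 0.059) did not pass. The cause was not tested. In POP of dP2 against pP, DESeq2 called 4 with the pyruvate kinase (FDR 0.042), against 3. Over all genes it called 7009 there, against 6305. Leaving out 1 library gave 2 to 5 calls in dP2 and 0 to 2 in pP. It gave 3 to 5 in NPIP of dP2 against pP (5472 to 7264 over all genes). In POP of dP2 against pP it gave 3 to 4 (4322 to 6369 over all genes). The block changed no other call of the 5 genes. Sets could not be compared with a block, since each root belongs to 1 set.

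Counts over all genes also depended on the tool. For POP against NPIP they were 2225 in dP2 (3887 by DESeq2, 3461 by the likelihood ratio test, 3400 with the block) and 1098 in pP (2347, 2121, 3137 with the exchanged block, 2040 in 1 fit of all 18 libraries). DESeq2 and the exchanged block moved the split in pP from 861 higher and 237 lower to 1523 and 824, and to 1946 and 1191. Between dP1 and pP they were 270 in POP (887 by DESeq2, 737 by the likelihood ratio test, 32 on 6 libraries) and 925 in NPIP (2070, 1691, 197). For the tissue by set differences they were 3 for dP1 against pP (33, 26, 0 with the block, 7 with the exchanged block), 224 for dP2 against pP (816, 706, 788 with the exchanged block) and 490 for dP2 against dP1 (1426, 1169). Without 1 library these counts were 1534 to 4340 for dP1 (3293 with all), 522 to 3062 for dP2, 219 to 998 for pP, 82 to 316 and 234 to 916 between dP1 and pP, and 0 to 6, 54 to 278 and 73 to 956 for the differences. The NPIP level of the invertase in dP2 rests on 19 reads in all, so its ratio is bounded by counting error.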
